A study of Rattus norvegicus with 9 samples.

Results

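The genes described here are 10 genes of inhibitory interneurons and neuropeptides of the rat cerebral cortex. They are Gad1, Gad2 and Slc32a1, which make and package the transmitter GABA, Pvalb, Calb1 and Calb2, which encode calcium-binding proteins, and Sst, Npy, Vip and Cck, which encode neuropeptides. Members were taken by symbol, as every probe of the deposited signal table that the platform annotation assigns to one of these genes. This gave 9 probes, 1 for each of 9 genes, among 22523 probes, of which 13353 carry a gene symbol and stand for 13311 genes. No probe is annotated to Slc32a1, the vesicular GABA transporter, so it was not analysed here. The rule itself uses no measured value, although the genes were proposed with earlier results of these data known.

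The study measured messenger RNA of rat brain cortex on 9 single-colour Illumina bead arrays, 3 in each of 3 groups. The sea level group is cortex of normoxic rats, and the 3 km and 7 km groups are cortex of rats kept hypoxic at those simulated altitudes. Strain, sex, age and time at altitude are not stated in the labels, which name no genetic change and no drug in any group. Nor do the labels tie the 3 arrays of a group to different rats, and p-values therefore measure the spread between samples, which may be technical.

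Cortical interneurons are local inhibitory neurons that make GABA from glutamate by glutamic acid decarboxylase. They fall into classes that are told apart largely by the calcium-binding protein or peptide they carry: fast-spiking cells with parvalbumin, dendrite-targeting cells with somatostatin, many of which also make neuropeptide Y, and cells with vasoactive intestinal peptide that mostly contact other interneurons. Transcription of several of these peptide genes and of Gad1 is known to follow neuronal activity. Calb1 and Cck are also transcribed in pyramidal neurons of the cortex, so their signal in whole tissue is not one of interneurons alone.

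The somatostatin promoter is the textbook example of a cAMP response element, the site at which the activity-dependent factor CREB binds, and hypoxia-inducible factors read a short core of their own. The sequences shown are those of 3 members whose windows hold such letters. Of these, Sst and Vip were not called in any comparison, and Gad2 was too dim to be tested. RefSeq promoter windows of 300 bases (assembly GRCr8, mostly upstream of the start site) were held for 7 of the 10 genes, and Calb1, Calb2 and Cck had none. Both strands were searched for TGACGTCA, the full cAMP response element, for TGACG, its shorter core, which TGACGTCA contains on both strands, for ACGTG, the hypoxia-response core, and for TATAAA. TGACGTCA occurs in 1.83% of 33469 promoters and, among the 7 members, in that of Sst alone. In that window it begins at base 3 counted from the annotated start site, on the downstream side. TGACG occurs in 21.2% of all promoters and in 4 of the 7 members (Slc32a1, Pvalb, Sst and Vip). ACGTG occurs in 19.3% and in 2 of 7 (Gad1 and Gad2), and TATAAA in 14.2% and in 2 of 7 (Gad1 and Vip). The stretches of 90 bases shown carry the motif named beside each in capitals, on the plus strand. The Vip stretch also holds TATAAA, left in lower case. They lie at chr11:90461486-90461575 for Sst, chr1:44470350-44470439 for Vip and chr17:89671558-89671647 for Gad2.
Sst, with TGACGTCA: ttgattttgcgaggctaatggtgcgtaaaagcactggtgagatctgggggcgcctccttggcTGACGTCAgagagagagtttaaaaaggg
Vip, with TGACG: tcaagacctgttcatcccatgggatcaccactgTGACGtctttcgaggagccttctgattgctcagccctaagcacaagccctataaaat
Gad2, with ACGTG read on the other strand: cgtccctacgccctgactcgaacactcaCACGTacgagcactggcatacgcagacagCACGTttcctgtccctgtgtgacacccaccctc
A match describes these letters only. None says that a factor binds there in cortex, and no binding was measured in this study.

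Each probe has a signal, the brightness of its beads, and a detection p-value, its rank among negative control beads, where a value below 0.05 counts as detected. Levels are given as log2 of the background-corrected and quantile-normalized signal, on which no probe can be set against another probe. The correction leaves little room for dim probes. On 8 arrays the background that it inferred had a standard deviation between 382 and 570 signal units, when the median probe had a signal between 121.2 and 158.6, so small log2 differences of dim probes are compressed. Differences without background correction are therefore given beside them where that matters.

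One array stands apart. Sea level replicate 3 had Spearman correlations of 0.642 to 0.660 with the other arrays, which correlated at 0.969 to 0.978 among themselves, and its inferred background spread was 14.96. It detected 8170 probes, against 5881 to 6621 on the others. Of 2 tested choroid plexus markers, Ttr read 11.77 on it, against 7.30 to 7.66 on the other arrays, and Kcnj13 read 7.42, against 7.68 to 7.86. Of 8 such markers on the platform, 4 were detected on it and 1 or 2 on each other array. The members' differences from sea level are given on all 9 arrays and on the 8 without it, and those of other genes on 8 arrays in part.

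Signals of the interneuron genes were present in most samples. Of the 9 member probes, 7 were detected on all 9 arrays, Calb2 on 8 and Gad2 on 1, and 8 were tested. Beyond the members, 12 to 16 of 30 further interneuron marker genes on the platform were detected on the 8 arrays that resemble each other, and 22 on sea level replicate 3. The mean of the 16 tested ones stayed between -0.05 and 0.10 of the mean of 8 arrays on the log2 scale on all 9 arrays. The cortical label was checked in the same way. Excitatory neuron genes such as Slc17a7, the cortical vesicular glutamate transporter, and Nrgn, a postsynaptic calmodulin-binding protein, were detected on all 9 arrays. Of 11 such genes, 5 to 8 were detected on the 8 arrays that resemble each other, and 11 on sea level replicate 3. Camk2a was detected on 3 arrays and Neurod6 on 4. In tissue of mixed cells, fewer cells of a type and less RNA per cell cannot be told apart.

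No member passed the test in any comparison. In the limma fit over all 9 arrays, with Benjamini-Hochberg adjustment over 6656 probes, 0 of 8 tested members were called at 7 km against sea level, where 0.015% of all tested probes were called higher and 0.105% lower. At 3 km against sea level and at 7 km against 3 km, 0 of 8 were called, and the share of all tested probes called was 0% in both. An unadjusted p under 0.05 was found for 1 of 8 members at 7 km against sea level (Cck), when 11.4% of all tested probes had one. It was found for 0 of 8 at 3 km against sea level, when 8.07% of probes had one, and for 1 of 8 at 7 km against 3 km (Pvalb), when 2.7% did. The lowest adjusted p of a member in the 3 comparisons was 0.414, 0.533 and 1. On the 8 arrays without sea level replicate 3 limma again called 0 of 8 members in each comparison, when it called 0.0462% of 6499 probes higher and 0.262% lower at 7 km against sea level, and 0% in both other comparisons.

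Over the 8 tested members the median log2 difference at 7 km against sea level was -0.060, and it was -0.0067 over all tested probes. The medians at 3 km against sea level were -0.0094 over members and -0.00082 over all probes, and at 7 km against 3 km they were -0.099 and -0.00038. Medians of the absolute difference were 0.060 over members and 0.083 over all probes at 7 km against sea level, 0.077 and 0.075 at 3 km against sea level, and 0.11 and 0.035 at 7 km against 3 km. The signs were positive for 1 member and negative for 7 at 7 km against sea level, 4 and 4 at 3 km against sea level, and 3 and 5 at 7 km against 3 km. On the 8 arrays the medians over members were -0.018 at 7 km and 0.013 at 3 km against sea level, the second with its sign turned, against -2.35e-05 and 0.0012 over all probes. The signs were then positive for 2 and negative for 6 at 7 km, and 4 and 4 at 3 km. These counts rest partly on differences well inside their errors, as the intervals of single members show.

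**Figure D1:**
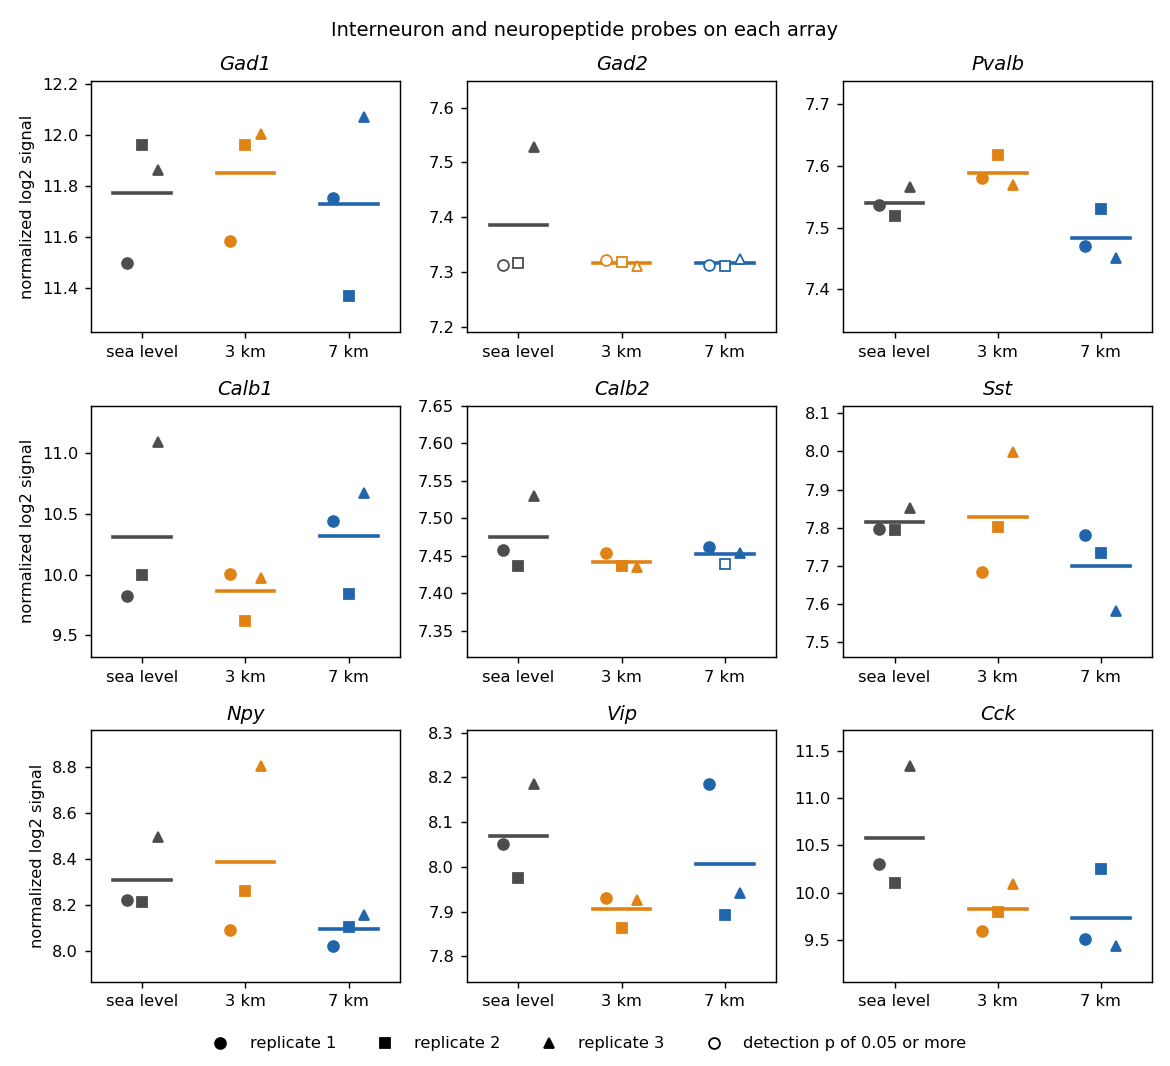
Normalized log2 signal of the 9 member probes (vertical axis, one scale per panel) on each array of the 3 altitudes (horizontal axis). Horizontal bars are group means and open symbols are arrays with a detection p of 0.05 or more; Gad2 is detected on sea level replicate 3 alone, and the 7 km arrays lie below all sea level arrays for Sst and Npy.

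Gad1 encodes the decarboxylase that supplies most of the GABA used in the cell body and in tonic release. Its probe is bright, with raw signals of 2787 to 6578. Normalized levels were 11.50, 11.96 and 11.86 on the sea level arrays, 11.58, 11.96 and 12.01 at 3 km, and 11.76, 11.37 and 12.07 at 7 km. The third array at 7 km was the highest of all and the second at 7 km the lowest, so that this group spanned the range of both others. The log2 difference at 7 km against sea level was -0.042 ± 0.21 (SE), with a 95% interval of -0.53 to 0.45. It was 0.077 ± 0.21 at 3 km against sea level and -0.12 ± 0.21 at 7 km against 3 km. Without sea level replicate 3 Gad1 differed from sea level by -0.0011 ± 0.25 at 7 km and by 0.12 ± 0.25 at 3 km.

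Gad2 encodes the isoform held at synaptic terminals. Its probe was detected on sea level replicate 3, with a detection p of 0.00121 and a signal of 264, and on none of the other 8 arrays, where the detection p was 0.230 to 0.353 and the signal 109 to 149. The probe was thus not well above background on any array at altitude and has only a bound there, 7.43 at 7 km and 7.42 at 3 km. The sea level mean of 7.39 lies below both bounds, and no fold is given.

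The wider GABA group gave no call either. Of 13 genes for GABA synthesis, breakdown and uptake and for the glutamine supply, 9 were on the platform and 5 were tested, Gad1 included. None passed at 7 km or at 3 km against sea level, or between the altitudes. Slc38a2, a transporter of glutamine, had the largest difference at 7 km against sea level, -0.49 ± 0.24, with an adjusted p of 0.414. On 8 arrays it differed by -0.39 ± 0.28. Slc6a13, a GABA transporter, differed by 0.040 ± 0.034 in that comparison on 9 arrays and by 0.0079 ± 0.016 on 8.

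Pvalb encodes parvalbumin, the calcium buffer of fast-spiking interneurons, and had the smallest p of the members between the 2 altitudes. Its probe is dim, with raw signals of 248 to 486. Normalized levels were 7.54, 7.52 and 7.56 at sea level, 7.58, 7.62 and 7.57 at 3 km, and 7.47, 7.53 and 7.45 at 7 km. All 3 arrays at 7 km lay below all 3 arrays at 3 km, and the sea level arrays lay between, all below 3 km and overlapping 7 km. Without background correction the levels were 8.08, 8.31 and 7.99 at 7 km and 8.47, 8.58 and 8.44 at 3 km, so the gap between the groups is wider on that scale.

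The difference of Pvalb at 7 km against 3 km was -0.11 ± 0.032, with an unadjusted p of 0.0129 and an adjusted p of 1 by limma. Without background correction it was -0.37 ± 0.11, which is a ratio of 0.776, with an adjusted p of 1. In the authors' deposited value table the fit gave -0.79 ± 0.20, a ratio of 0.577, with an unadjusted p of 0.00428 and an adjusted p of 1, and 0.47 ± 0.20 at 3 km against sea level, with an unadjusted p of 0.0467 and an adjusted p of 0.507. By p-value Pvalb ranked at place 50 of 6656 with background correction and at place 25 without. It was 1 of 8 members whose arrays lay wholly lower at 7 km than at 3 km, when 7.71% of all tested probes did so, and 0 of 8 lay wholly higher, when 5.93% did. With sea level replicate 3 left out of the fit, the difference was -0.076 ± 0.020, with an adjusted p of 0.401. At 7 km against sea level Pvalb differed by -0.057 ± 0.032 (95% interval -0.13 to 0.019) and at 3 km against sea level by 0.049 ± 0.032 (-0.027 to 0.12). On 8 arrays these differences were -0.032 ± 0.022 and 0.044 ± 0.022.

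Calb1 encodes calbindin, found in interneurons and in pyramidal cells of the upper layers. Its levels were 9.82, 9.997 and 11.09 at sea level, 10.004, 9.62 and 9.97 at 3 km, and 10.44, 9.84 and 10.67 at 7 km. Sea level replicate 3 was the highest of all 9 arrays, and among the other 8 the first array and the third array at 7 km were highest. In raw signal sea level replicate 3 read 1918, within a range of 1735 to 2791 over all arrays. Its height appears once the arrays are brought to one distribution. The difference at 7 km against sea level was 0.013 ± 0.36 (95% interval -0.82 to 0.85) on 9 arrays and 0.43 ± 0.27 (-0.22 to 1.07) on 8. The 7 km arrays differed from 3 km by 0.45 ± 0.36, and by 0.47 ± 0.24 when sea level replicate 3 was left out, with an adjusted p of 0.656. The 3 km arrays differed from sea level by -0.44 ± 0.36 on 9 arrays and by -0.047 ± 0.27 on 8, which is smaller without that array.

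Calb2 encodes calretinin, a marker of part of the interneurons that carry vasoactive intestinal peptide. Its probe lay close to background, with detection p-values of 0.0339 to 0.0509 on the 8 arrays that resemble each other. The levels on those 8 arrays spanned 0.027 on the normalized scale and 0.13 without background correction. Sea level replicate 3 was again higher, at 7.53, although its raw signal of 265 lay within the range of 200 to 299 over all arrays. The difference at 7 km against sea level was -0.023 ± 0.032 on 9 arrays and 0.0036 ± 0.014 on 8, and the sign thus turned with that array. It was -0.033 ± 0.032 and -0.0042 ± 0.014 at 3 km against sea level.

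Other calcium-binding proteins of the EF-hand family showed no call. Of 23 listed, 18 were on the platform and 13 were tested. For 7 km against sea level 2 were higher and 11 lower, with a median of -0.076, against -0.0067 over all tested probes, and 0 passed. The smallest p belonged to Calm3, a calmodulin gene, at -0.35 ± 0.12 with an adjusted p of 0.397. Hpca, which encodes hippocalcin, differed by -0.59 ± 0.23 at 7 km against sea level and by -0.71 ± 0.23 at 7 km against 3 km, with adjusted p-values of 0.414 and 1.

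**Figure D2:**
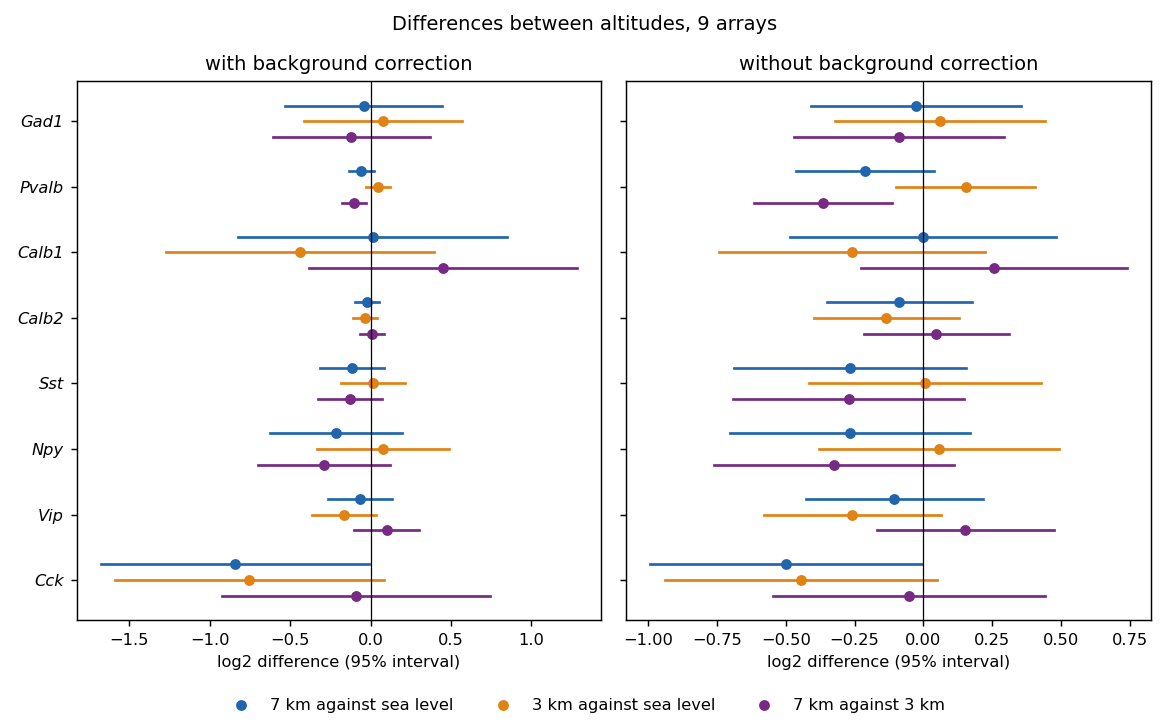
Log2 differences of the 8 tested members (points) with 95% intervals from limma (lines) over 9 arrays, with background correction (left) and without (right). Only the interval of Pvalb at 7 km against 3 km and that of Cck at 7 km against sea level exclude 0, before adjustment over 6656 probes.

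Sst encodes somatostatin. Its levels were 7.80, 7.79 and 7.85 at sea level, 7.68, 7.80 and 8.00 at 3 km, and 7.78, 7.73 and 7.58 at 7 km. All 7 km arrays lay below all sea level arrays, narrowly so for the first, and the 3 km arrays spread over both. Sst differed by -0.12 ± 0.085 at 7 km against sea level (95% interval -0.32 to 0.085), with an adjusted p of 0.464, and by -0.27 ± 0.18 without background correction. Without sea level replicate 3 Sst differed by -0.072 ± 0.079 at 7 km and by 0.029 ± 0.079 at 3 km against sea level. The difference at 3 km against sea level was 0.014 ± 0.085, and that at 7 km against 3 km was -0.13 ± 0.085.

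Npy encodes neuropeptide Y, an inhibitory peptide made by many somatostatin cells. Its levels were 8.22, 8.21 and 8.496 at sea level, 8.09, 8.26 and 8.80 at 3 km, and 8.02, 8.10 and 8.16 at 7 km. The 7 km arrays again lay below all sea level arrays, and the highest array of all was the third at 3 km. The difference at 7 km against sea level was -0.22 ± 0.18 (95% interval -0.63 to 0.19) on 9 arrays and -0.11 ± 0.19 on 8, and that at 7 km against 3 km was -0.29 ± 0.18, with adjusted p-values of 0.491, 0.845 and 1. Npy differed at 3 km against sea level by 0.076 ± 0.18 on 9 arrays and by 0.17 ± 0.19 on 8. Sst and Npy were thus 2 of 8 members with every 7 km array below every sea level array. Of all tested probes 12.5% did so. No member lay wholly above sea level there, and 12.2% of all tested probes did.

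Vip encodes vasoactive intestinal peptide. Its levels were 8.05, 7.97 and 8.18 at sea level, 7.93, 7.86 and 7.93 at 3 km, and 8.19, 7.89 and 7.94 at 7 km. All 3 km arrays lay below all sea level arrays, and the 7 km arrays overlapped both groups. The difference at 3 km against sea level was -0.16 ± 0.085 (95% interval -0.36 to 0.037), with an adjusted p of 0.533. On the 8 arrays it was -0.089 ± 0.075, and at 7 km against sea level it was -0.064 ± 0.085 on 9 arrays and -0.0044 ± 0.075 on 8.

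Cck encodes cholecystokinin, which a class of basket interneurons and many pyramidal cells produce, and showed the widest difference from sea level among the members. Its levels were 10.30, 10.10 and 11.33 at sea level, 9.59, 9.80 and 10.09 at 3 km, and 9.51, 10.25 and 9.44 at 7 km. Sea level replicate 3 lay far above every other array, and the second array at 7 km lay among the sea level ones. All 3 km arrays lay below all sea level arrays, narrowly so for the third at 3 km. Raw signals were 2340, 1818 and 2141 at sea level, 2214, 2601 and 2194 at 3 km, and 1808, 2218 and 1698 at 7 km. In raw signal the 3 km arrays were thus not below sea level, and 1 of them was the highest of all. Raw signals also carry the brightness of the whole array. The median signal was 158.6, 157.2 and 134.5 on the 3 km arrays and 134.8, 121.2 and 203.9 on the sea level arrays. The third sea level array was not the highest in raw signal, and its height appears once the arrays are brought to one distribution.

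Cck differed by -0.85 ± 0.36 at 7 km against sea level (95% interval -1.68 to -0.011), with an unadjusted p of 0.0477 and an adjusted p of 0.414. Without sea level replicate 3 the difference was -0.49 ± 0.29 (-1.18 to 0.20), with an unadjusted p of 0.134. The difference at 3 km against sea level was -0.75 ± 0.36 on 9 arrays and -0.39 ± 0.29 on 8, and at 7 km against 3 km it was -0.092 ± 0.36. Against sea level, 1 of 8 members at 3 km, Pvalb, lay wholly above sea level, when 8.8% of all tested probes did, and 2 of 8, Vip and Cck, lay wholly below, when 10.7% did. The comparisons of 7 km and of 3 km with sea level share the sea level arrays.

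Among the receptors of the 4 peptides 1 gene was called on 8 arrays. Of 13 receptor genes listed, 9 were on the platform and 4 were tested: Sstr1, Sstr2, Sstr5 and Cckbr. Sstr2 encodes a somatostatin receptor of cortical neurons through which the peptide inhibits them. Its levels were 7.92, 7.88 and 7.75 at sea level, 7.68, 7.69 and 7.74 at 3 km, and 7.66, 7.67 and 7.61 at 7 km. Every array at either altitude lay below every sea level array, although sea level replicate 3 lay just above the third array at 3 km.

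On all 9 arrays Sstr2 differed by -0.20 ± 0.048 at 7 km against sea level, with an adjusted p of 0.273, and was not called. On the 8 arrays without sea level replicate 3 it fell by 0.19 ± 0.023 at 7 km on the log2 scale, with an adjusted p of 0.0422, as 1 of the 4 receptors tested. Without background correction on those arrays the difference was -0.56 ± 0.089, with an adjusted p of 0.0236, when 0.585% of all tested probes were called lower and 0.308% higher. At 3 km against sea level it was -0.15 ± 0.023 on 8 arrays, with an adjusted p of 0.104, and at 7 km against 3 km it was -0.044 ± 0.020, with an adjusted p of 0.639. The call rests on 2 sea level arrays, and limma made it in 5 of 24 alternative fits. Cckbr, the cholecystokinin receptor of brain, differed by -0.077 ± 0.046 at 7 km against sea level on 8 arrays, with an adjusted p of 0.548.

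Interneuron markers beyond the members were counted in the same way. Of 38 listed, 30 were on the platform and 16 were tested. Against sea level, 7 were higher at 7 km and 9 were lower, with a median of -0.017 over the list and -0.0067 over all tested probes, and 0 passed on 9 arrays. The medians at 3 km against sea level were -0.029 and -0.00082. Without background correction they were -0.074 over the list and -0.015 over all probes at 7 km, and -0.069 and 0.0024 at 3 km. On the 8 arrays 15 were tested. With correction the medians there were -0.0064 over the list and -2.35e-05 over all probes at 7 km, and -0.022 and 0.0012 at 3 km, with 0 passing. Without correction they were -0.058 and -0.0029 at 7 km, with 1 passing, and -0.096 and 0.0029 at 3 km, with 0 passing. In that last fit 0.585% of all tested probes were called lower at 7 km and 0.308% higher. Crhbp, a binding protein for corticotropin-releasing hormone found in somatostatin cells, had the smallest p. Its levels were 7.68, 7.70 and 7.91 at sea level, 7.51, 7.53 and 7.49 at 3 km, and 7.50, 7.52 and 7.46 at 7 km, with all arrays at altitude below all sea level arrays.

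Crhbp differed by -0.27 ± 0.062 at 7 km against sea level on 9 arrays and by -0.14 ± 0.019 on 8, with adjusted p-values of 0.248 and 0.0744. On 8 arrays without background correction the difference was -0.60 ± 0.097, with an adjusted p of 0.0237, the 1 call of the list. It was -0.25 ± 0.062 at 3 km against sea level on 9 arrays and -0.13 ± 0.019 on 8, with adjusted p-values of 0.331 and 0.103. Cort, which encodes cortistatin, a relative of somatostatin, differed by -0.13 ± 0.042 at 7 km against sea level, with an adjusted p of 0.375. Satb1, a transcription factor of somatostatin and parvalbumin interneurons, differed on 8 arrays by -0.77 ± 0.35 at 7 km and by -0.82 ± 0.35 at 3 km, with adjusted p-values of 0.449 and 0.548. On 9 arrays Satb1 differed by -0.31 ± 0.42 and -0.36 ± 0.42, with groups that overlap.

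Among other neuropeptide precursors all 24 listed were on the platform, 8 were tested and 0 passed in any comparison on 9 or on 8 arrays. At 7 km against sea level 4 were higher and 4 lower, with a median of -0.0082. Adcyap1, which encodes the peptide PACAP, had levels of 8.06, 8.02 and 8.03 at sea level, 7.67, 7.81 and 7.66 at 3 km, and 7.91, 7.68 and 7.68 at 7 km. All its arrays at altitude lay below all at sea level. It differed by -0.28 ± 0.072 at 7 km and by -0.32 ± 0.072 at 3 km against sea level, with adjusted p-values of 0.286 and 0.293. Nts, the neurotensin precursor, differed by -0.28 ± 0.076 at 7 km, with an adjusted p of 0.330, and by -0.18 ± 0.065 on 8 arrays. Nts was detected on 7 of 9 arrays. Nmu, another precursor, went the other way, with all arrays at altitude above all at sea level. It differed by 0.035 ± 0.027 at 7 km and by 0.080 ± 0.027 at 3 km against sea level, with adjusted p-values of 0.481 and 0.533. Its probe was dim and was detected on 3 of 9 arrays.

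The genes that process peptides and sort them into dense-core vesicles gave 0 calls among 7 tested of 9 on the platform. Pcsk1n, an inhibitor of a prohormone convertase, differed by 0.43 ± 0.25 at 7 km against sea level on 9 arrays and by 0.12 ± 0.11 on 8. The difference of Mme, which encodes the peptide-degrading enzyme neprilysin, was 1.58 ± 0.83 on 9 arrays and 0.48 ± 0.23 on 8. Sea level replicate 3 read 7.31 for it, when the first and second sea level arrays read 10.58 and 10.68. Neither gene passed, with adjusted p-values of 0.419 and 0.414 on 9 arrays.

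Of 15 GABA receptor and scaffold genes, 11 were on the platform, 8 were tested and 0 passed. Gabbr2 encodes a subunit of the metabotropic GABA receptor. Its levels were 10.85, 11.15 and 9.67 at sea level, 10.15, 10.16 and 10.23 at 3 km, and 10.74, 10.64 and 10.53 at 7 km. The 3 km arrays lay close together below both of the first sea level arrays and below all 7 km arrays, and sea level replicate 3 lay below all others. On 9 arrays the difference was 0.078 ± 0.34 at 7 km and -0.38 ± 0.34 at 3 km against sea level, and leaving out sea level replicate 3 turned the sign at 7 km. On the 8 arrays the difference at 3 km against sea level was -0.85 ± 0.10, with an adjusted p of 0.0623, that at 7 km against sea level was -0.38 ± 0.10, with an adjusted p of 0.225, and that at 7 km against 3 km was 0.48 ± 0.090, with an adjusted p of 0.316.

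**Figure D3:**
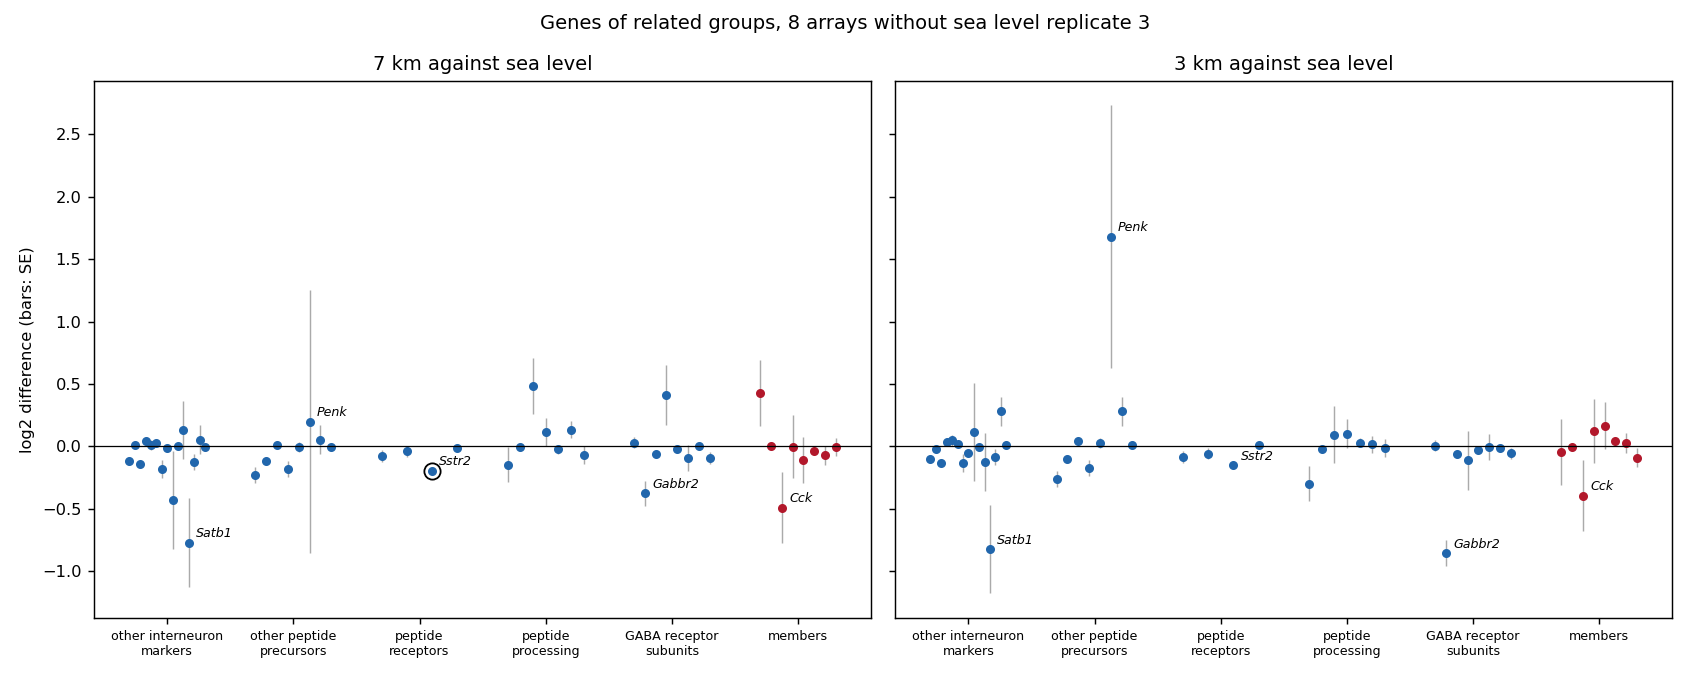
Log2 differences (points, with standard errors as lines) of single genes of 5 related groups and of the 8 tested members (red), at 7 km and at 3 km against sea level on the 8 arrays without sea level replicate 3. The ringed point is Sstr2 at 7 km, the one gene shown with an adjusted p below 0.05.

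Genes of the transcriptional response to neuronal activity were tested for 6 of 13 listed, with 10 on the platform, and 0 passed. Junb, an immediate early transcription factor, had levels of 9.09, 8.81 and 7.86 at sea level, 9.46, 9.56 and 9.54 at 3 km, and 9.99, 9.54 and 10.03 at 7 km. Every array at altitude lay above every sea level array. It differed by 1.27 ± 0.30 at 7 km and by 0.93 ± 0.30 at 3 km against sea level on 9 arrays, with adjusted p-values of 0.255 and 0.513. On 8 arrays the differences were 0.94 ± 0.17 and 0.59 ± 0.17, with adjusted p-values of 0.111 and 0.353. Bdnf, a growth factor on which the upkeep of Npy and Sst transcription is known to depend, differed by -0.12 ± 0.038 at 7 km against sea level, with an adjusted p of 0.373. Nptx2, a synaptic protein that recruits receptors to parvalbumin cells, differed by -0.12 ± 0.036, with an adjusted p of 0.350, and by -0.077 ± 0.024 on 8 arrays.

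Markers of striatum, which lies under the cortex and is rich in GABA and peptide genes, varied from array to array. The mean of 10 such genes on the log2 scale, against the mean of 8 arrays, was -0.59, -0.08 and -0.68 at sea level, 0.23, 0.46 and 0.69 at 3 km, and -0.60, -0.53 and 0.43 at 7 km. All 3 km arrays were high, and the third 7 km array was close to the second at 3 km. Of 12 listed genes on the platform, 6 to 11 were detected on the sea level arrays, 9 to 11 on the 3 km arrays and 6 to 10 on the 7 km arrays. Their summed normalized signal was 2517 to 7737 at sea level, 10911 to 16409 at 3 km and 4057 to 12579 at 7 km. Of the 10 tested, all 10 were higher at 3 km than at sea level and all 10 lower at 7 km than at 3 km, with 0 passing.

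Single striatal genes differed widely in size. The median difference of the 10 genes at 3 km against sea level was 0.23, and 0.70 without background correction. Over the 9 arrays Drd2 stayed between 7.40 and 7.53 and Pdyn between 7.33 and 7.50, whereas Penk and Rgs9 were among the widest ranging. Penk, the proenkephalin precursor of striatal projection neurons, had levels of 7.92, 9.33 and 8.04 at sea level, 9.17, 10.43 and 11.24 at 3 km, and 7.87, 7.91 and 10.59 at 7 km. Rgs9, a regulator of dopamine receptor signalling, had levels of 7.97, 9.35 and 7.77 at sea level, 10.92, 10.89 and 11.23 at 3 km, and 8.01, 8.11 and 10.49 at 7 km. Penk and Tac1 also stand in the list of neuropeptide precursors, and Tac1 in that of interneuron markers, so those lists' values at 3 km hold these genes.

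Several members were high on arrays where the striatal markers were high. Gad1 was highest on the third 7 km array and next on the third 3 km array, and Sst and Npy were highest on the third 3 km array, where the striatal mean was highest. Pvalb was high on all 3 km arrays. Calb1 did not follow that order, Sst and Npy were low on the first 3 km array, and Sst and Pvalb were lowest of all on the third 7 km array. Vip and Cck went the other way, with all 3 km arrays below all sea level arrays. Cck was highest on sea level replicate 3, where the striatal mean was lowest. The part of striatal tissue in the differences of Gad1, Sst, Npy and Pvalb at 3 km was not tested.

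**Figure D4:**
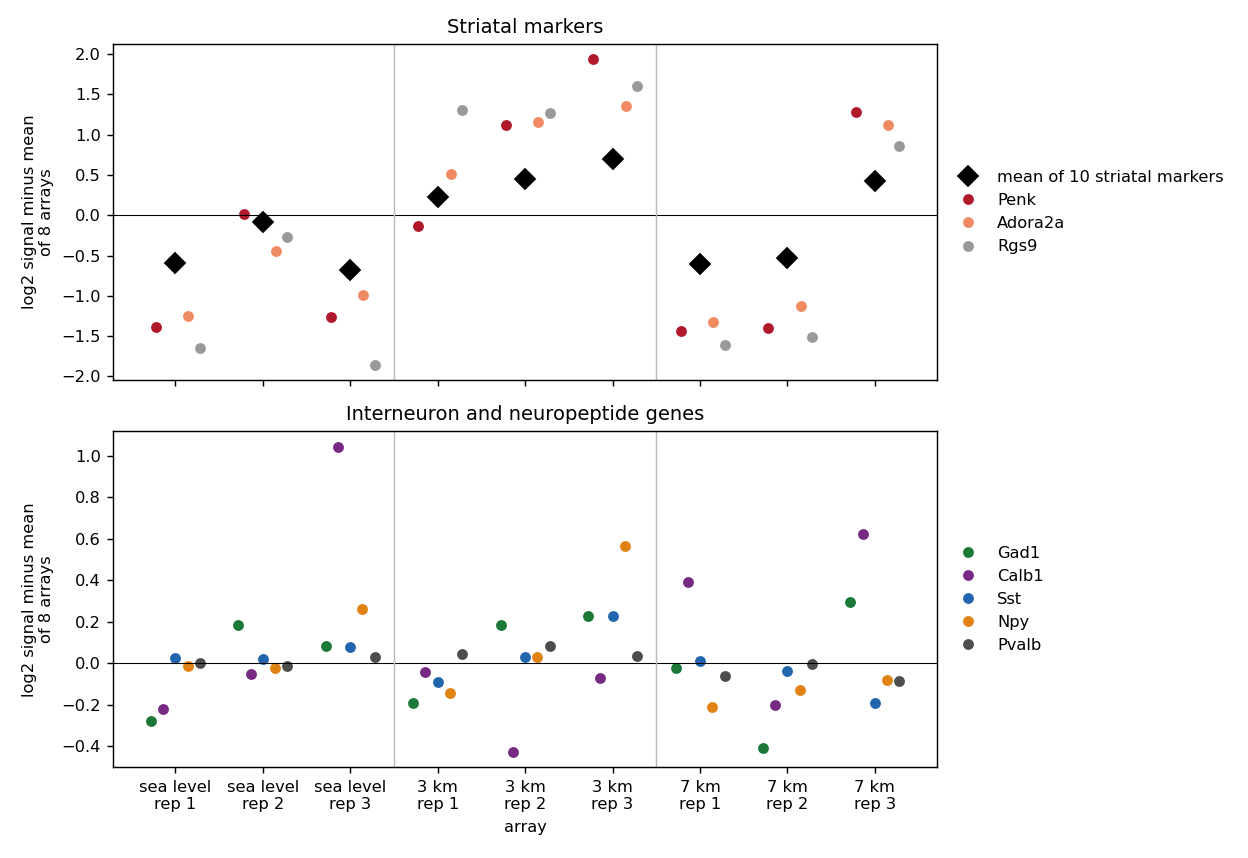
Log2 level against the mean of 8 arrays for the striatal markers Penk, Adora2a and Rgs9 (top, with the mean of 10 genes as diamonds) and for 5 members (bottom) on each array; points are offset sideways only to keep them apart. The striatal mean is between 0.23 and 0.69 on the 3 km arrays, 0.43 on the third 7 km array and below 0 on the other 5. Penk, Adora2a and Rgs9 are among the widest ranging of the 10 genes.

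Markers of other cell types differed between the groups as well. Oligodendrocyte markers had a mean of 10 genes of 0.25, 0.30 and 0.24 at sea level, 0.10, 0.29 and 0.01 at 3 km, and -0.50, -0.08 and -0.37 at 7 km, on the same scale. By that mean all 7 km arrays were below all others. Of the single genes Mog, Cnp, Mal and Ugt8 showed this, and the others overlapped. Mobp read 8.96 on the second 7 km array, against 8.26 to 8.91 at sea level. The summed normalized signal of these genes was 10288 to 11823 at sea level, 8299 to 11396 at 3 km and 4783 to 7480 at 7 km, with 10 or 11 of 13 detected on every array. On 8 arrays without background correction 2 of 10 passed at 7 km against sea level, Mog at -0.90 ± 0.15 and Ugt8 at -0.996 ± 0.14, with adjusted p-values of 0.0248 and 0.0142. Both are genes of myelin. In that fit 0.585% of all tested probes were called lower and 0.308% higher. On 8 arrays with correction, and on 9 arrays with or without it, 0 of 10 passed.

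The mean of 3 tested endothelial markers was -0.37, -0.51 and -0.91 at sea level, 0.44, -0.34 and 0.03 at 3 km, and -0.10, 0.38 and 0.48 at 7 km. By that mean every array at altitude lay above every sea level array, narrowly so for the second at 3 km. Of the 3 genes Vwf alone showed this. Cldn5 read 8.77 on the second 3 km array, against 9.48 to 10.32 at sea level, and Esam overlapped too. Per array, 2 or 3 of 6 such genes were detected. The summed normalized signal was 1663 to 2051 at sea level, 2621 to 4336 at 3 km and 2652 to 4700 at 7 km. Of 8 tested excitatory neuron genes 7 were lower at 7 km and 7 at 3 km against sea level, with medians of -0.066 and -0.13 and 0 passing. Their mean was 0.07, 0.05 and 0.18 at sea level, -0.06, -0.04 and -0.03 at 3 km, and 0.01, 0.01 and -0.01 at 7 km, and their summed normalized signal was 19768 to 22848, 19360 to 20444 and 17208 to 20580 at those altitudes. Of 7 tested astrocyte markers Gjb6, a connexin, passed at 7 km against sea level on 8 arrays without background correction, at 0.64 ± 0.12 with an adjusted p of 0.0390. In that fit 0.308% of all tested probes were called higher. On 8 arrays with correction, and on 9 arrays with or without it, 0 of these 7 passed. The part of these cell types in the members' differences was not tested.

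The genes whose pattern over the 9 arrays was nearest to that of a member were found for the 3 members with the widest range of group means, by the root mean square distance of log2 levels centred on each gene's own mean, among 4867 named probes. For Cck, whose own levels vary by 0.547 on that measure, they were Ndufb2, Asrgl1 and Ndufb6, at distances of 0.195 to 0.222. Those nearest to Calb1, which varies by 0.447, were Hnrnpa3, Emc2 and Sdcbp, at 0.165 to 0.229. For Npy, which varies by 0.229, the nearest were Vdac3, Naca and Egr1, at 0.114 to 0.115. These distances include sea level replicate 3.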

How the data were processed

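Messenger RNA of rat brain cortex was measured on 9 arrays in 3 groups of 3, assigned by the altitude in the labels. The authors deposited a non-normalized table of 22523 probes with 1 intensity and 1 detection p-value per array, from which, by its positive signals and unequal medians, no background was subtracted. Their value table of 21675 probes holds intensity values with columns of nearly equal mean and many values below 0; no source used here says how the authors made it, and it served as an alternative with values floored at 16. Members and gene lists were chosen with earlier results of these data known.

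Signals were corrected with neqc (limma 3.58.1, R 4.3.3; background inferred from the deposited detection p-values, offset 16, quantile normalization, log2). A probe was tested if 3 or more arrays gave it a detection p-value under 0.05. The test was a limma model of group means with eBayes and Benjamini-Hochberg adjustment, and the threshold was an adjusted p of 0.05. Every adjusted p and every standard error after ± comes from limma, and the number of arrays limits precision. A gene with several probes is given by its brightest tested one. Named are all members, the genes of each list with the smallest p in a comparison, at most 4,, any list gene that passed with or without background correction, and for likeness the 3 nearest genes. Penk and Rgs9, and other list genes described by their levels, follow that rule or were chosen after their values were seen. The fit was tested on simulated data. Alternatives were other background, scaling, filters, blocks, weights and leaving out each array, among them 2 added after the data were seen.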

Additional observations from a re-analysis of the deposited data

How the results depend on the processing

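Under all 24 alternatives limma called 0 members in each of the 3 comparisons. Of 573 single values of members, 531 kept their sign and their side of the threshold and 42 turned sign, and the cause was not tested. Scaling arrays to equal medians shifted the median over all probes by -0.64 at 7 km and by -0.55 at 3 km against sea level, and by -0.062 at 7 km against 3 km. Against sea level it gave -1.04 for Calb1 at 7 km, and at 3 km -0.51 for Gad1, -0.42 for Pvalb, -0.71 for Sst and -0.77 for Npy, which relative to that shift is above 0 for Gad1 and Pvalb and below 0 for Sst and Npy. At 7 km against 3 km it gave -0.063 for Calb1, -0.015 for Calb2 and -0.055 for Vip, also without sea level replicate 3, where at 3 km against sea level Calb1 was 0.12 and Calb2 0.0065. At 7 km against sea level the authors' value table gave 0.045 for Gad1, and without sea level replicate 3 it gave 0.026 for Gad1 and 0.069 for Calb2. Without background correction Calb1 was -0.0025 there, and on the 8 arrays Gad1 was 0.0014 and Calb2 0.024. Array weights gave 0.0053 for Calb2 there, or 0.00057 on 8 arrays, and 0.057 or 0.064 for Cck at 7 km against 3 km. With eBayes trend on 8 arrays Calb2 was 0.0036.

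Leaving out each array in turn gave, at 7 km against sea level, -0.21 to 0.14 for Gad1, -0.22 to 0.43 for Calb1 and -0.044 to 0.0036 for Calb2. At 3 km against sea level it gave -0.061 to 0.21 for Gad1, -0.072 to 0.088 for Sst and -0.13 to 0.22 for Npy, and at 7 km against 3 km -0.29 to 0.061 for Gad1 and -0.35 to 0.053 for Cck. The 8 probes called at 7 km against sea level became 0 to 20 in these fits, with 20 without sea level replicate 3 and 0 without any 1 of 6 other arrays. Other settings gave 0 to 176 there, the highest with array weights, whose estimation on 9 arrays stopped before it converged, and 0 to 120 at 3 km against sea level. Sstr2 at 7 km against sea level was called in 5 of 24 alternatives and Crhbp in 4, and Sstr2 and Gabbr2 at 3 km in 2 each, with no change of sign.

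The labels do not say whether replicate numbers pair the arrays. Between groups, deviations of same-numbered arrays correlated at 0.013 to 0.305, and those of differently numbered arrays at -0.303 to 0.277. With the replicate number as a block limma called 0 members and 0 probes in each comparison. On 8 arrays the block gave 0.0045 for Calb2 and 0.0055 for Vip at 7 km and -0.0042 for Gad1 at 3 km against sea level. Signal over background limits Gad2 and Calb2 most: with detection required on all arrays Calb2 could not be tested.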
